A study of Homo sapiens with 26 samples.

Results

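The IGF2BP proteins are RNA-binding proteins that hold their messenger RNAs in cytoplasmic granules, where they protect some of them from decay and control their translation. Described here are 9 genes out of 63086 in the count files: the IGF2BP1 transgene that the cells were given, its paralogs IGF2BP2 and IGF2BP3, and 6 RNAs long known as IGF2BP targets, HMGA2, HMGA1, LIN28B, MYC, CD44 and BTRC. The genes were chosen by name and matched to the files by Ensembl identifier, and their coordinates are those of the files in hg38. IGF2BP1 is an oncofetal protein, abundant in embryos, silent in most adult tissue and switched on again in many tumours. Its best known RNA partners include the MYC messenger, and messengers with sites for the let-7 microRNA, such as HMGA2 and LIN28B, which it can shield from silencing.

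Poly(A) RNA was sequenced in 26 libraries from clarified lysates of HCT116, a human colorectal carcinoma line. In 24 of them the genotype was Tet-OsTIR1-PURO with IGF2BP2 KO and IGF2BP3 KO, and the cells carried mCherry-IGF2BP1 as WT, S181E, Y396E or RQ, each as PBS control or after 2 h in 500 µM sodium arsenite, in 3 independently grown dishes. S181E and Y396E put a glutamate in place of a serine or tyrosine that can be phosphorylated, each in a disordered linker. RQ (R167Q, R168Q, R174Q and R178Q) removes arginines from the first linker. The other 2 libraries, 1 control and 1 arsenite, came from HCT116 cells with no such label and are called parental. The transgene was a lentiviral insert of the IGF2BP1 coding region under a human PGK promoter. Each version was 1 sorted mCherry-positive population, so a mutation and its population cannot be told apart. The paper states that sorting used a narrow mCherry gate to make WT and mutant expression comparable, and shows a Western blot of the protein. The IGF2BP1 values below are RNA, not protein.

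Depth ran from 22508145 to 50834401 counts per library. The epithelial markers EPCAM, KRT8, KRT18, KRT19 and CDH1 were found in all 26 libraries at 23.4 CPM or more (protein-coding counts scaled to a common library total, with TMM factors). VIL1, the other epithelial marker, did not exceed 0.225 CPM, and of 6 markers of other cell types only COL1A1 exceeded 0.741 CPM (6.46 to 11.4). Y396E arsenite replicate 3 stood apart with 13897 genes detected against at least 20850 in the other libraries, and the Y396E arsenite differences are also given without it.

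The mutated codons are printed here with their surroundings to show how close the RQ arginines are to S181. The reference codons that the mutants replace are in capitals, 5′ to 3′ on the plus strand of hg38, in exons of IGF2BP1 (ENSG00000159217.10, chromosome 17, 48997385 to 49056145). Their positions are chr17:49038262-49038291, chr17:49038289-49038318 and chr17:49043521-49043550.
Codons changed in R167Q, R168Q and R174Q: gggCGCCGAgggggctttggctctCGGggt
Codons changed in R178Q and S181E: ggtcagcccCGCcagggcTCAcctgtggca
Codon changed in Y396E: actggggctgctcccTATagctcctttatg

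The let-7 microRNAs pair through bases 2 to 8, the seed, with the letters CTACCTC in target RNAs. All 8 mature let-7 sequences of RefSeq (GRCh38.p14) share the seed in capitals below. One 22-base stretch of the 3′ UTR is shown for each member that holds the match, with the match in capitals, to show which members carry it. The stretches are chr17:49051061-49051082 (IGF2BP1, plus strand), chr3:185644221-185644242 (IGF2BP2, minus), chr7:23311796-23311817 (IGF2BP3, minus), chr12:65963298-65963319 (HMGA2, plus), chr6:34245829-34245850 (HMGA1, plus) and chr6:105078812-105078833 (LIN28B, plus) in hg38.
let-7a: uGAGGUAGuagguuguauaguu
IGF2BP1: tgtgtgcgaagtaaaCTACCTC
IGF2BP2: aacacacagaagaagCTACCTC
IGF2BP3: tgcatttttactcaaCTACCTC
HMGA2: gccaacgttcgatttCTACCTC
HMGA1: tcctctgttcacaaaCTACCTC
LIN28B: acccggttgcaaagtCTACCTC

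The match occurred 4 times each in the 3′ UTRs of IGF2BP1, HMGA2 and LIN28B and 1 time each in those of IGF2BP2, IGF2BP3 and HMGA1. MYC, CD44 and BTRC held no match. Of 18772 annotated 3′ UTRs, read on the strand of the messenger only, 9.85% held at least 1 match. Among the 500 UTRs nearest in length to that of HMGA2 (2999 bases) 15.4% did, and 0 of them held 4. The matches of IGF2BP1 belong to the 3′ UTR of the chromosomal gene, which the transgene, built from the coding region, does not carry.

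IGF2BP1 RNA marked the populations that carried the transgene. In parental cells it had 10 counts in control (0.343 CPM) and 23 in arsenite (0.637 CPM). In control cells the 3 WT libraries were at 10.8, 10.5 and 14.5 CPM, those of RQ at 15.1, 12 and 15.4, those of Y396E at 15.1, 16.4 and 17.4, and those of S181E at 18, 17.1 and 20.1. The WT mean was 34.7-fold above the parental library, with a range of 18.9 to 72.3 from the exact Poisson interval (95%) of the 10 parental counts, which covers counting error only. The lowest mean was that of WT and the highest that of S181E, and the ranges of neighbours in that order overlapped.

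After arsenite, IGF2BP1 stood at 29.3, 27.5 and 29.6 CPM in WT, 46.6, 45.6 and 47.3 in RQ, 42.6, 43.5 and 42.2 in S181E and 44.1, 41.8 and 42.2 in Y396E. The 9 mutant libraries all lay above the 3 WT libraries, and RQ lay above S181E and Y396E, whose values overlapped. The plot of IGF2BP1 by library shows the rise in every population. A level in these bulk samples cannot separate more cells with the transgene from more RNA per cell, and reads of the transgene and of the chromosomal gene fall in 1 count.

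**Figure D1:**
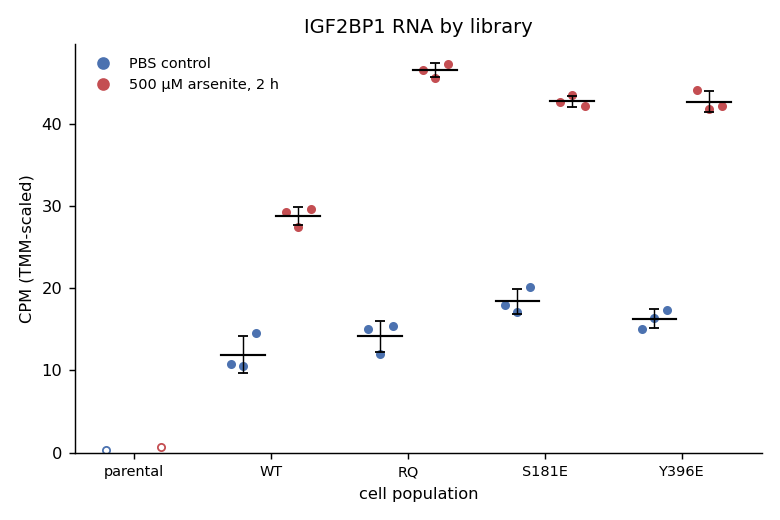
IGF2BP1 level (CPM, TMM-scaled, linear axis from 0) in each library of the parental cells (open points, 1 per treatment) and of the 4 mCherry-IGF2BP1 populations (filled points), with the mean as a bar and ± SD of 3 libraries. Arsenite libraries lie above control libraries in all 4 populations, between 27.5 and 47.3 CPM against 10.5 to 20.1 CPM.

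Calls below come from edgeR's quasi-likelihood test over 9099 genes and need a Benjamini-Hochberg adjusted p under 0.05 and a change above 1.2-fold (0.26 on the log2 scale). Differences are log2 values ± SE, with n = 3 libraries per group. Of the 9 members 8 passed the filter on low counts. LIN28B, at 0.931 CPM or less in every library, did not, and has no test.

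In control cells IGF2BP1 was higher than in WT by 0.63 ± 0.10 in S181E (edgeR adjusted p = 2.3e-05) and by 0.45 ± 0.10 in Y396E (edgeR adjusted p = 0.00115), while RQ differed by 0.25 ± 0.10 (edgeR adjusted p = 0.26). The RQ difference was called when WT control replicate 3, the highest WT library, was left out (0.42, edgeR adjusted p = 0.0348). In arsenite all 3 mutants were above WT, S181E by 0.57 ± 0.09, Y396E by 0.57 ± 0.09 and RQ by 0.69 ± 0.09 (edgeR adjusted p at most 5.72e-05). Transgene RNA was called different from WT in 5 of the 6 comparisons in which the target RNAs are set side by side below, RQ control cells being the exception.

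IGF2BP1 rose with arsenite in RQ by 1.71 ± 0.10, in Y396E by 1.39 ± 0.10, in WT by 1.27 ± 0.10 and in S181E by 1.21 ± 0.10. The RQ response exceeded that of WT by 0.44 ± 0.14, which did not pass the threshold (edgeR adjusted p = 0.562, unadjusted p = 0.00424). In the parental pair the ratio of arsenite to control was 1.86 with a counting interval of 0.85 to 4.37, so no change was detectable at that depth. The chromosomal PGK1 gene, whose promoter type drives the transgene, rose with arsenite by 0.86 ± 0.07 in WT, 0.99 ± 0.07 in RQ, 0.69 ± 0.07 in Y396E and 0.63 ± 0.07 in S181E. PGK1 was also higher than in WT in control cells of S181E (0.42 ± 0.07) and Y396E (0.43 ± 0.07), while RQ differed by -0.12 ± 0.07. In arsenite PGK1 differed from WT by 0.18 ± 0.07 in S181E, 0.26 ± 0.07 in Y396E and 0.00 ± 0.07 in RQ, none called. There IGF2BP1 differed by 0.57, 0.57 and 0.69. PGK1 was added after its values had been seen, and its part in the IGF2BP1 values was not tested.

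The paralogs IGF2BP2 (ENSG00000073792.16, chromosome 3, 185643130 to 185825042) and IGF2BP3 (ENSG00000136231.14, chromosome 7, 23310209 to 23470491) are the genes that were knocked out. Their RNAs were present in every library. IGF2BP2 ranged from 61.5 to 90.1 CPM over the 24 knockout libraries and was at 119 and 149 CPM in the parental control and arsenite libraries. IGF2BP3 ranged from 107 to 164 CPM in the knockout libraries and was at 91 and 109 CPM in the parental ones. Counts over a whole gene do not show whether its reading frame is intact, so they do not check a Cas9 knockout. The knockout line and the parental cells could not be compared by a test, with 1 parental library per treatment.

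In control cells the RNAs of both paralogs were more abundant per length than that of the transgene. Per kilobase of counted exon, IGF2BP2 had 18 ± 0.394 and IGF2BP3 27.2 ± 0.397 CPM in WT control cells (SD, n = 3). IGF2BP1 had 6.88 ± 1.28 CPM per kilobase of its coding region of 1734 bases, the part that the transgene carries. In arsenite the IGF2BP1 value was 16.6 ± 0.655 in WT and 26.8 ± 0.493 in RQ, against 16.2 ± 0.461 and 19.1 ± 0.596 for IGF2BP2 and 26 ± 0.714 and 28.7 ± 0.955 for IGF2BP3.

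IGF2BP3 separated S181E and Y396E from WT in control cells. WT libraries were at 115, 116 and 118 CPM, S181E at 159, 162 and 153, Y396E at 164, 160 and 163, and RQ at 125, 135 and 132. The differences were 0.44 ± 0.05 in S181E (edgeR adjusted p = 1.02e-07) and 0.48 ± 0.05 in Y396E (edgeR adjusted p = 2.74e-08). RQ differed by 0.17 ± 0.05 (edgeR adjusted p = 0.0712). In arsenite the differences were 0.23 ± 0.05, 0.20 ± 0.05 and 0.14 ± 0.05, under the fold threshold. Without Y396E arsenite replicate 3 the Y396E difference in arsenite was 0.27 and was called.

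IGF2BP2 was called in none of the 6 comparisons with WT by edgeR or DESeq2, with an unadjusted p under 0.05 in 3 of them by each tool. It was lowest in Y396E, at 69.9, 75 and 80.3 CPM in control and 65.1, 68.7 and 61.5 CPM in arsenite. In arsenite RQ, at 87.6, 84 and 82.4 CPM, lay above WT, at 69.3, 72 and 73.3 CPM, by 0.24 ± 0.05 (edgeR adjusted p = 0.0149), a little under the fold threshold.

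**Figure D2:**
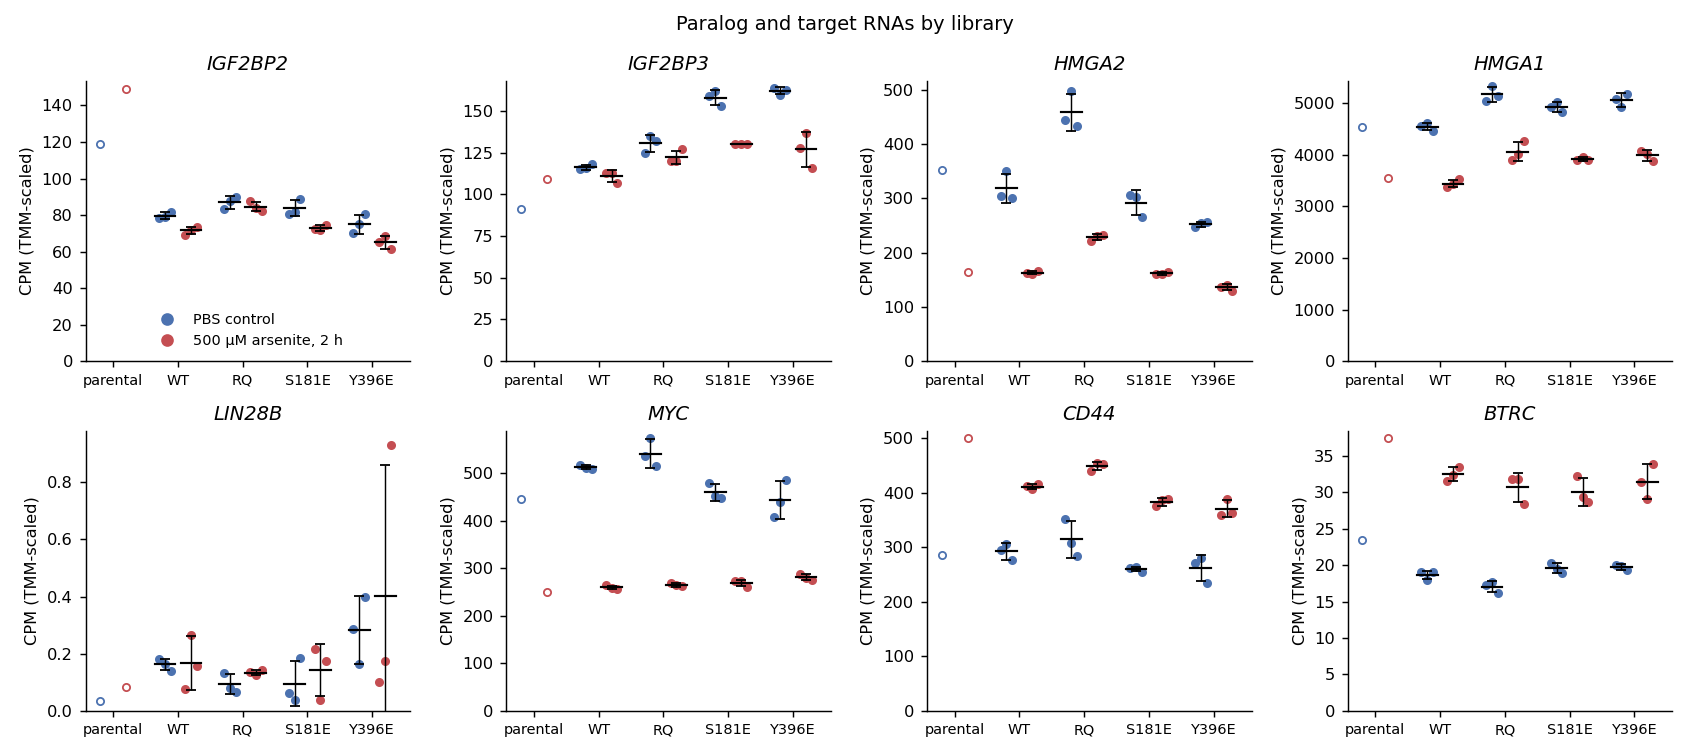
Levels (CPM, TMM-scaled, linear axes from 0) of IGF2BP2, IGF2BP3, HMGA2, HMGA1, LIN28B, MYC, CD44 and BTRC in each library, with the mean as a bar and ± SD of 3 libraries (open points, the single parental libraries). HMGA2 and MYC are lower and CD44 and BTRC higher in arsenite in every population, and LIN28B stays at 0.931 CPM or less, its Y396E arsenite bar being cut at 0.

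Among the target RNAs HMGA2 was the one called between mutants and WT, in 4 of 6 comparisons by edgeR and 3 by DESeq2. HMGA2 (ENSG00000149948.14, chromosome 12, 65824460 to 65966291) encodes an architectural chromatin protein of embryonic and tumour cells and is the classic let-7 target. Control libraries were at 305, 350 and 300 CPM in WT, 445, 498 and 433 in RQ, 307, 303 and 266 in S181E and 247, 254 and 256 in Y396E. RQ lay above WT by 0.53 ± 0.06 (edgeR adjusted p = 4.14e-06) and Y396E differed from it by -0.33 ± 0.06 (edgeR adjusted p = 7.68e-05), and neither overlapped WT. The Y396E difference was no longer called with library totals (-0.20), a scaling that moved the median of all genes from 0.01 to 0.14, or without WT control replicate 2 (-0.26). S181E overlapped WT and differed by -0.13 ± 0.06 (edgeR adjusted p = 0.0818).

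In arsenite RQ was again highest and Y396E lowest. HMGA2 was at 163 ± 3.42 CPM in the 3 WT libraries (SD), the lowest being at 160, and the libraries were at 222, 230 and 233 in RQ, 161, 160 and 164 in S181E and 137, 141 and 130 in Y396E. RQ was higher than WT by 0.48 ± 0.06 (edgeR adjusted p = 9.19e-06), and Y396E was lower, with a difference of -0.26 ± 0.06 (edgeR adjusted p = 0.00145). The Y396E value sat at the fold threshold. It was no longer called without Y396E arsenite replicate 3 (-0.22), with DESeq2 or with RLE size factors (-0.26 in both). The parental libraries had 353 CPM in control and 164 in arsenite. RQ had the highest HMGA2 of the populations in both treatments, while its IGF2BP1 was the lowest but for WT in control and the highest in arsenite.

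HMGA1 (ENSG00000137309.21, chromosome 6, 34236873 to 34246231), a relative of HMGA2, was the most abundant member per length, at 1954 ± 31.8 CPM per kilobase in WT control cells. Its WT control libraries were at 4567, 4611 and 4466 CPM and every mutant control library was above them, from 4829 to 5333 CPM. Its differences from WT ran from 0.12 to 0.24 in the 6 comparisons, past the p threshold in each (edgeR adjusted p at most 0.0228) and under the fold threshold in each. Scaling by library totals raised the S181E and Y396E control differences to 0.27 and 0.28, which were called. That scaling moved the median of all genes from 0.02 to 0.18 in S181E and from 0.01 to 0.14 in Y396E. The 8 listed HMGA1 pseudogenes together held at most 0.044% as many counts as HMGA1.

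LIN28B (ENSG00000187772.8, chromosome 6, 104940866 to 105083332) encodes the oncofetal protein that blocks let-7 maturation. It had 37 counts in Y396E arsenite replicate 3, the library that stood apart, and at most 13 in each other library. The parental libraries had 1 and 3 counts. With 3 counts taken as the floor of a library, 6 of the 8 groups had at least 1 library at or under it. LIN28B RNA was too scarce in these cells to compare populations.

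CD44 (ENSG00000026508.21, chromosome 11, 35138882 to 35232402) encodes a hyaluronan receptor of the cell surface, and BTRC (ENSG00000166167.18, chromosome 10, 101354033 to 101557321) the substrate-binding subunit of the ubiquitin ligase that marks β-catenin for decay. Neither was called in any of the 6 comparisons with WT by edgeR or DESeq2. At an unadjusted p under 0.05 CD44 had 4 by edgeR and 3 by DESeq2, and BTRC had 0 by both. CD44 control libraries were at 295, 305 and 276 CPM in WT, 262, 263 and 255 in S181E and 271, 280 and 235 in Y396E. The CD44 differences were -0.16 ± 0.06 in S181E and -0.15 ± 0.06 in Y396E (edgeR adjusted p = 0.0322 and 0.0478), under the fold threshold, and RQ, at 351, 307 and 284 CPM, differed by 0.11 ± 0.06. BTRC stayed between 16.2 and 20.3 CPM in the 12 mCherry-IGF2BP1 control libraries. Its differences from WT there ran from -0.13 to 0.08, the 95% intervals from -0.29 to 0.23.

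Over the 8 tested members 2 were called in S181E, 3 in Y396E and 1 in RQ against WT in control cells, where 31.1%, 28.6% and 1.43% of all 9099 genes were called. In arsenite the numbers were 1, 2 and 2 members, where 13.7%, 21.7% and 1.52% of all genes were called. For S181E and Y396E the share of members called, 12.5% to 37.5%, was near that of genes at large. In Y396E arsenite without replicate 3 again 2 members were called, IGF2BP1 (0.59) and IGF2BP3 (0.27). The other differences were then -0.08 for IGF2BP2, -0.22 for HMGA2, 0.25 for HMGA1, 0.14 for MYC, -0.12 for CD44 and -0.10 for BTRC. In RQ, where few genes were called, HMGA2 was called in both treatments and IGF2BP1 in arsenite.

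**Figure D3:**
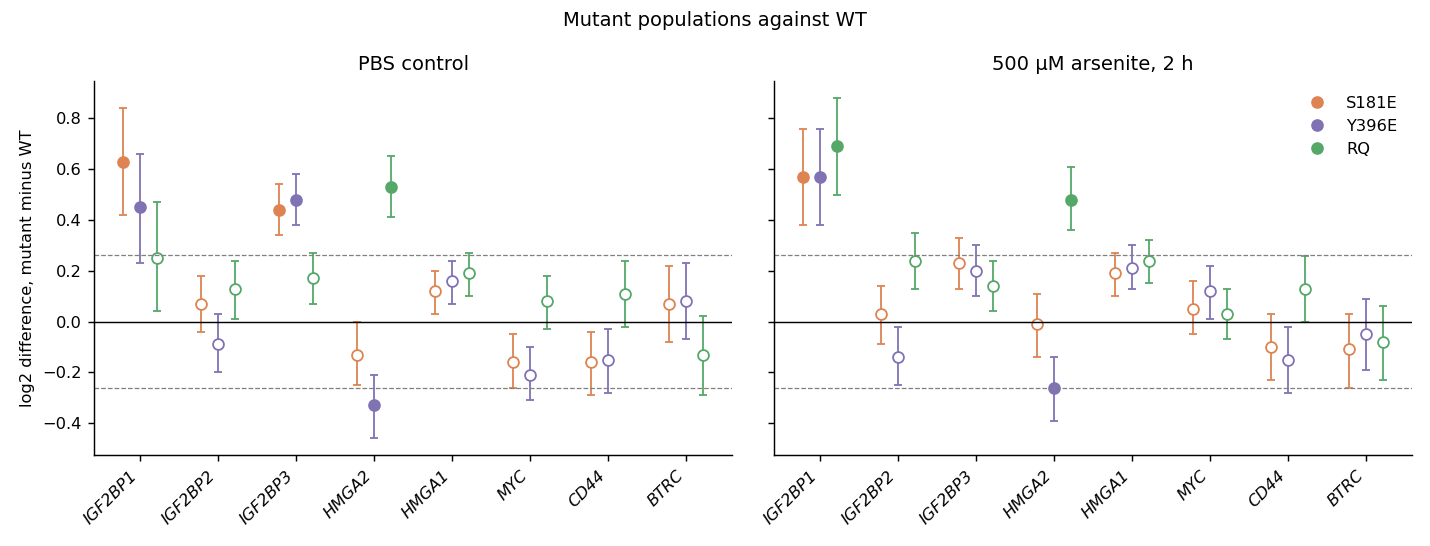
Difference of each mutant population from WT (log2, edgeR, points) with 95% intervals for the 8 tested members, in control (left) and arsenite (right), with filled points for calls and dashed lines at 1.2-fold. HMGA2 lies above 0 in RQ (0.53 and 0.48) and below 0 in Y396E (-0.33 and -0.26; with library totals -0.20 and -0.24, not called), and IGF2BP1 is called in 5 of the 6 comparisons.

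S181E and Y396E, which carry the same kind of substitution in different linkers, were also set against each other. No member was called in the 16 tests with edgeR or with DESeq2, where 0% of the 9099 genes were called in either treatment, and 4 had an unadjusted p under 0.05 with each tool. These were HMGA2 (-0.21 ± 0.06 in control and -0.25 ± 0.06 in arsenite, Y396E minus S181E) and IGF2BP2 (-0.16 ± 0.05 in both). The HMGA2 difference in arsenite was called when Y396E arsenite replicate 2 was left out (-0.28, edgeR adjusted p = 0.0268). Without Y396E arsenite replicate 3 the arsenite differences were -0.22 for HMGA2 and -0.12 for IGF2BP2, and no member was called by edgeR.

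MYC (ENSG00000136997.22, chromosome 8, 127735434 to 127742951) encodes a transcription factor of cell growth, and its messenger is a long-known partner of IGF2BP1. Control libraries were at 517, 511 and 509 CPM in WT, 536, 573 and 514 in RQ, 480, 451 and 448 in S181E and 407, 439 and 486 in Y396E. All S181E and Y396E libraries lay below WT. The differences, -0.16 ± 0.05 and -0.21 ± 0.05 (edgeR adjusted p = 0.0128 and 0.00182), were under the fold threshold, and RQ differed by 0.08 ± 0.05. Without Y396E control replicate 3 the Y396E difference was -0.28 and was called. In arsenite the differences were 0.05 ± 0.05 in S181E, 0.12 ± 0.05 in Y396E and 0.03 ± 0.05 in RQ. MYC was called in none of the 6 comparisons with WT by edgeR or DESeq2 and had an unadjusted p under 0.05 in 3 by each tool.

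MYC lies on chromosome 8, whose tested genes were low as a set in S181E and Y396E. Over 322 tested genes of that chromosome the median control difference from WT was -0.42 for S181E and -0.41 for Y396E. The arsenite medians of the chromosome were -0.44 and -0.45, and its RQ median was 0.02 under either treatment. The values near MYC were similar. The 10 nearest tested genes on each side of MYC had a control median of -0.46 for either mutant. Their arsenite medians were -0.44 (S181E) and -0.53 (Y396E). Of these 20 genes 17 were called lower in each mutant in control cells, and 15 and 14 in arsenite. The Y396E arsenite median of the 20 was -0.49, and 15 were called lower, without replicate 3. In RQ the median of the 20 was 0.02 and 0.03. In all 4 comparisons of S181E and Y396E with WT, 18 of the 20 neighbours were lower than MYC, the other 2 (TMEM65 and KHDRBS3) being higher. TMEM65 and KHDRBS3 are named because they are the exceptions, seen in the values.

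As chromosome 8 genes were already known to be low in S181E and Y396E, the next values are a description only. They give the level of MYC relative to these neighbours within each library. Its log2 level minus the mean of the 20 neighbours was 3.11 to 3.22 in WT control libraries, 3.14 to 3.31 in RQ, 3.46 to 3.62 in S181E and a mean of 3.47 ± 0.12 (SD, n = 3) in Y396E. In arsenite it was 2.39 to 2.46 in WT, 2.34 to 2.41 in RQ, 2.89 to 2.96 in S181E and 2.97 to 3.07 in Y396E. The S181E and Y396E libraries lay above those of WT in both treatments, and the RQ libraries overlapped WT in both.

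**Figure D4:**
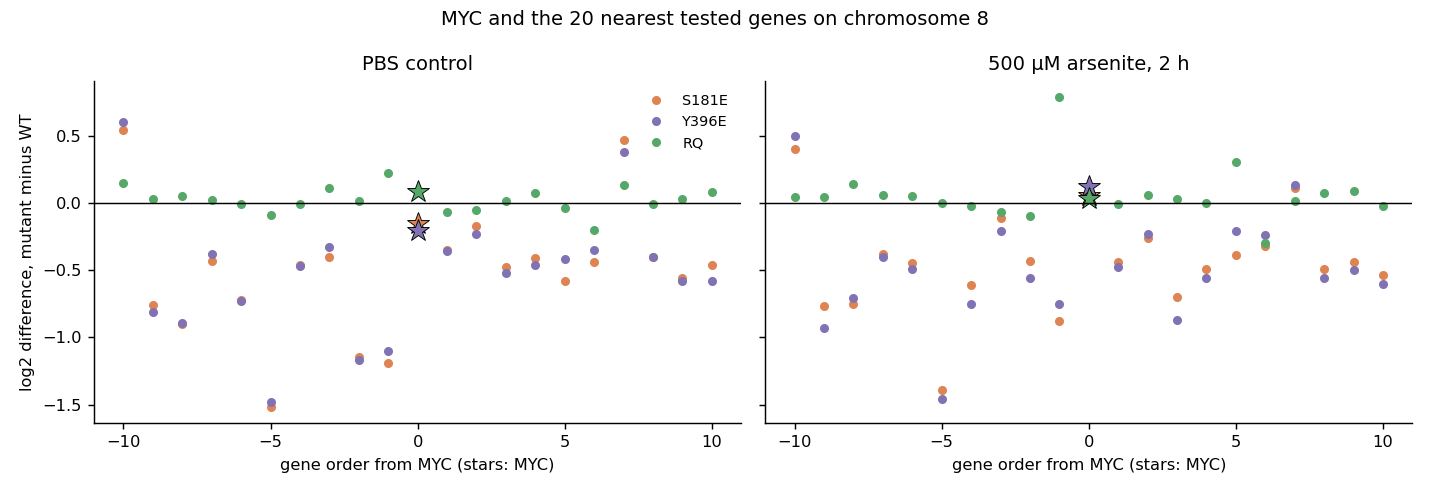
Difference of each mutant from WT (log2, edgeR) for MYC (stars, position 0) and the 10 nearest tested genes on each side of it on chromosome 8, by gene order, in control (left) and arsenite (right). In S181E and Y396E 18 of the 20 neighbours lie below MYC, and RQ neighbours have a median of 0.02 and 0.03.

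Arsenite changed most of the target RNAs in every population, in different directions. HMGA2, MYC and HMGA1 fell, and CD44 and BTRC rose, in all 4 mCherry-IGF2BP1 populations. Of 32 tests, 26 were called, 6 of 8 members in WT and RQ each and 7 of 8 in S181E and Y396E each, where 72.2%, 72.9%, 65.3% and 65.8% of all genes were called. The share of members called in WT and RQ, 75%, was near that of genes at large, and in S181E and Y396E it was 87.5%. The values are relative to the RNA of the library, and a change in total RNA per cell would not appear in them.

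HMGA2 and MYC fell most. In arsenite the HMGA2 mean of WT, given above, lay beside the parental library at 164 CPM. The HMGA2 change was -1.01 ± 0.06 in RQ, -0.96 ± 0.06 in WT, -0.89 ± 0.06 in Y396E and -0.85 ± 0.06 in S181E, and -1.11 in the parental pair. MYC went from 517, 511 and 509 CPM to 264, 258 and 257 CPM in WT, a change of -0.98 ± 0.05. MYC changed by -1.03 ± 0.05 in RQ, -0.66 ± 0.05 in Y396E and -0.77 ± 0.05 in S181E, and by -0.84 in the parental pair. No control library of either gene overlapped an arsenite library of its population.

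HMGA1 changed less, by -0.40 ± 0.04 in WT, -0.35 ± 0.04 in RQ, -0.34 ± 0.04 in Y396E and -0.33 ± 0.04 in S181E, and by -0.35 in the parental pair. With library totals the WT and RQ changes were -0.24 and -0.18 and were not called. CD44 rose by 0.49 ± 0.06 in WT, 0.52 ± 0.06 in RQ, 0.50 ± 0.06 in Y396E and 0.56 ± 0.06 in S181E. The parental pair stood at 285 and 500 CPM of CD44, a difference of 0.81. BTRC rose from 19, 18 and 19 CPM to 31.6, 32.4 and 33.5 CPM in WT, by 0.80 ± 0.07. In the other populations BTRC rose by 0.85 ± 0.07 (RQ), 0.62 ± 0.07 (S181E) and 0.67 ± 0.07 (Y396E), and the parental difference was 0.68.

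The paralog RNAs had negative changes in the mCherry-IGF2BP1 populations and positive ones in the parental pair. IGF2BP2 changed by -0.16 ± 0.05 in WT, -0.04 ± 0.05 in RQ, -0.21 ± 0.05 in Y396E and -0.20 ± 0.05 in S181E, none past the fold threshold, while the parental pair differed by 0.32. IGF2BP3 fell by 0.28 on the log2 scale in S181E and by 0.35 in Y396E. In WT and RQ its change was -0.07 ± 0.05 and -0.09 ± 0.05, and the parental difference was 0.26. The call in S181E did not hold with library totals or a wider filter (-0.24 in both), with no filter or only the groups compared (-0.26 in both), without S181E control replicate 2 (-0.26), or without replicate 3 of S181E, RQ or Y396E in arsenite (-0.25 in each). Without Y396E arsenite replicate 3, the Y396E changes were 1.42 for IGF2BP1, -0.83 for HMGA2, -0.62 for MYC, -0.30 for HMGA1, 0.53 for CD44, 0.64 for BTRC and -0.27 for IGF2BP3, all 7 called, and -0.14 for IGF2BP2. With 1 parental library per treatment, none of these parental differences has a replicate check.

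**Figure D5:**
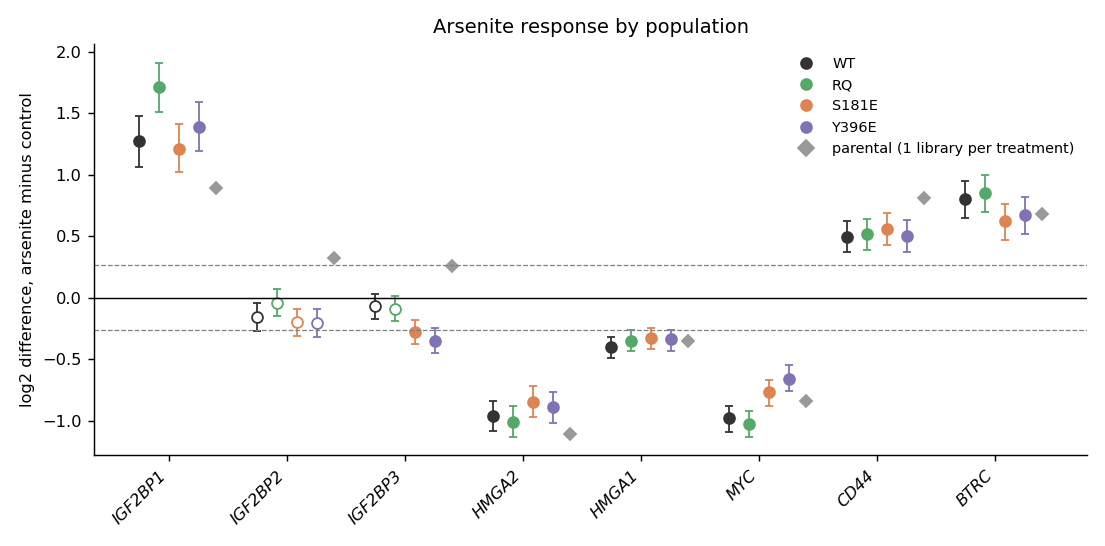
Arsenite response (log2 difference, arsenite minus control, edgeR) of the 8 tested members in WT, RQ, S181E and Y396E (circles, filled where called, with 95% intervals) and in the parental pair (grey diamonds, 1 library per treatment, no interval), with dashed lines at 1.2-fold. HMGA2, HMGA1 and MYC lie below 0 and CD44 and BTRC above 0 in all populations, and IGF2BP2 and IGF2BP3 lie above 0 only in the parental pair.

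Differences between the responses were tested as interaction terms. In Y396E 2 of 8 members were called, where 21.5% of all genes were. MYC fell less than in WT, by 0.32 ± 0.07 (edgeR adjusted p = 0.00277), and IGF2BP3 fell more, the difference being -0.28 ± 0.07 (edgeR adjusted p = 0.00516). The 20 neighbours of MYC had a median difference of -0.01 in the same term (0.07 without Y396E arsenite replicate 3), from -0.35 to 0.61. Of these 18 had a lower term than MYC, 2 were called higher and 1 lower. TRIB1 (0.61) and LRATD2 (0.35), the nearest tested genes on the side of lower coordinates, exceeded MYC and are named as exceptions. Without Y396E arsenite replicate 3 the IGF2BP3 term was -0.19 and was not called, and the MYC term was 0.37 and was called. The MYC term was not called without Y396E control replicate 1 (0.26) or with library totals (0.22, edgeR adjusted p = 0.0362), a scaling that moved the median term of all genes from -0.02 to -0.12.

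In S181E the MYC term was 0.21 ± 0.07 and the IGF2BP3 term -0.21 ± 0.07 (edgeR adjusted p = 0.0423 and 0.0345), both under the fold threshold. No member was called in S181E with edgeR or DESeq2, where 16.4% of all genes were called by edgeR, and 2 had an unadjusted p under 0.05 with each tool. No member was called in RQ with either tool, where 0.22% of all genes were called by edgeR, and 1 had an unadjusted p under 0.05 with each. HMGA2, CD44 and BTRC differed from WT by -0.18 to 0.11 in their responses (in Y396E 0.13, 0.05 and -0.16 without Y396E arsenite replicate 3).

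Whether target levels follow the transgene was also asked among dishes of the same group. The deviations of each library from its group mean (log2 CPM) were compared between IGF2BP1 and each of the other 7 tested members over 24 libraries. None of the 7 relations passed the threshold by a permutation test within groups, adjusted or unadjusted. The strongest was that of HMGA2 (Pearson r = -0.63, permutation p = 0.0874, adjusted p = 0.297; Spearman rho = -0.49, permutation p = 0.12), and r was -0.49 without RQ control replicate 2 and WT control replicate 3. It was -0.67 (permutation p = 0.0723) without Y396E arsenite replicate 3. The others had r from -0.34 (CD44) to 0.36 (IGF2BP2). Without RQ control replicate 1 the relations of IGF2BP2 (r = 0.47) and CD44 (r = -0.65) passed (permutation test, adjusted p = 0.0423 for both). For these relations no r across groups is given, since the libraries fall apart by treatment and population.

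The 5 genes whose log2 CPM over the 24 libraries was most like that of IGF2BP1 were EZR (r = 0.974), PLRG1 (0.971), SHMT2 (0.968), INTS11 (0.967) and PYGB (0.966), which differed between arsenite and control in WT by 0.75 to 1.30. Within the 12 control libraries r was 0.77 to 0.91, and within the 12 arsenite libraries 0.54 to 0.76. The genes most like HMGA2 were the amino acid transporters SLC38A1 (0.980) and SLC7A5 (0.979), then ADGRF1 (0.977), AP1AR (0.968) and VAMP2 (0.967). For these r stayed between 0.86 and 0.96 within either treatment. The genes were picked by this r over all libraries, which fall apart by treatment and population. The libraries also share scaling, and r is a description only.

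Other RNAs reported to bind IGF2BP proteins were counted as a group. Of 16 listed genes 11 were tested. In control cells 6 were higher and 1 lower than in WT in S181E and in Y396E, with medians of 0.28 and 0.29 against 0.02 and 0.01 for all genes. Of all genes 15.7% were higher and 15.4% lower in S181E, and 14.5% and 14.2% in Y396E. CTNNB1, which encodes β-catenin, was higher by 0.40 ± 0.07 in S181E and 0.43 ± 0.07 in Y396E, FSCN1, an actin-bundling protein, by 0.58 ± 0.06 and 0.57 ± 0.06, and the cyclin CCND1 by 0.49 ± 0.06 and 0.46 ± 0.06. The gene called lower was PABPC1 (-0.92 ± 0.04 and -0.93 ± 0.04), which lies on chromosome 8. In arsenite 2 were higher and 3 lower in S181E, and 1 higher and 4 lower in Y396E, where 5.32% and 8.42%, and 9.77% and 11.9%, of all genes were higher and lower. In Y396E 1 was higher and 3 lower without arsenite replicate 3, against 8.54% and 9.79% of all genes. With arsenite in WT 5 rose and 4 fell, where 36.3% of all genes rose and 35.9% fell. CTNNB1 changed by 1.79 ± 0.07 and SRF, the serum response factor, by -1.32 ± 0.06.

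Of 20 other let-7 targets 14 were tested. In control cells 5 were higher and 1 lower in S181E, and 6 higher and 2 lower in Y396E, with medians of 0.21 and 0.25 against 0.02 and 0.01 for all genes, of which 15.7% were higher and 15.4% lower in S181E, and 14.5% and 14.2% in Y396E. The cell cycle kinase CDK6 was higher by 1.08 ± 0.09 and 0.80 ± 0.09, and RRM2, a subunit of ribonucleotide reductase, by 0.57 ± 0.05 and 0.52 ± 0.05. E2F5, another chromosome 8 gene, was called lower in both, with a difference of -1.01 ± 0.10 in S181E. HMGA2, with 4 let-7 matches, had differences of -0.13 in S181E, not called, and -0.33 in Y396E. The Y396E call was lost with library totals (-0.20) or without WT control replicate 2 (-0.26). Both differences were on the other side of 0 from this group's medians, as were those of the group's genes called lower. With arsenite in WT 8 of the 14 fell and 1 rose, with a median of -0.38, where 35.9% of all genes fell and 36.3% rose with a median of -0.01. The change of the TGF-β receptor TGFBR1 was -1.34 ± 0.09.

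Of 10 protein partners of IGF2BP1 in RNA granules, 6 were called higher in S181E and 5 in Y396E control cells, where 15.7% and 14.5% of all genes were, and PABPC1 was lower in both. HNRNPU was higher by 0.68 ± 0.08 and 0.52 ± 0.08 and the helicase DHX9 by 0.45 ± 0.06 and 0.40 ± 0.06. In arsenite 9 of the 10 were not called in either mutant, and PABPC1 was again lower. Of all genes 13.7% were called there in S181E and 21.7% in Y396E, so the partner counts were near the share of genes at large. The Y396E count was also 1 of 10 without Y396E arsenite replicate 3. With arsenite in WT 8 of 10 rose, where 36.3% of all genes did, HNRNPU by 2.11 ± 0.08 and DHX9 by 2.13 ± 0.06. Of the MYC network 8 of 11 genes were tested. In S181E and Y396E control cells MXD4 was called lower (-0.79 ± 0.07 and -0.64 ± 0.07) and MXD3 higher (0.33 ± 0.10 and 0.30 ± 0.10). The other 6 were not called, and 31.1% and 28.6% of all genes were called there, so the network was near the share of genes at large. Of 4 genes listed for the ubiquitin ligase of BTRC, its subunits and its paralog FBXW11, 3 were tested. With arsenite in WT CUL1 rose by 0.61 ± 0.05, while RBX1 (-0.77 ± 0.09) and FBXW11 (-0.28 ± 0.06) fell. Of all genes 36.3% rose and 35.9% fell there.

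In RQ none of the 43 tested genes of these 5 lists was called in control or arsenite against WT with edgeR or DESeq2, and 5 had an unadjusted p under 0.05 in each treatment with each tool. Of all genes only 1.43% and 1.52% were called there by edgeR, so a count of none in 43 is near the share of genes at large.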

How the data were processed

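Per the paper's methods and the file headers, the authors trimmed single-end reads, mapped them to hg38 (STAR 2.7.11b) and summed them per gene with featureCounts (Subread 2.0.6, strand setting 2, GENCODE 46), and what they deposited is raw counts. Symbols came from GENCODE 44, matching 62541 of 63086 identifiers (99.1%). No library pair was identical, with a chi-square of 2.96 to 70.3 per gene within groups. The members, gene lists and tests were chosen with earlier results of these data known. Named genes were the 9 members, list genes called in a comparison described, the 5 genes most correlated with IGF2BP1 or HMGA2, and marker genes. Exceptions named as such were PGK1, TMEM65, KHDRBS3, TRIB1 and LRATD2.

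Following the study's test, protein-coding genes over 10 CPM in at least 12 of 24 libraries (9099) were fitted with 1 mean per group in edgeR 4.0.16 (R 4.3.3; glmQLFit, glmQLFTest; TMM factors 0.866 to 1.08; 16 residual degrees of freedom), with Benjamini-Hochberg adjustment over all of them. Scripts were tested on simulated data. The SE was the log2 difference over the square root of F. Parental libraries were scaled alike but not fitted. Relations to IGF2BP1 used 100000 two-sided permutations within groups. Replicate numbers paired RQ with WT by the data (correlations of same-numbered deviations 0.29 to 0.53 in control, 0.15 in arsenite), and no other groups throughout. Alternatives were DESeq2 1.42.0, RLE factors, library totals, other filters, only the groups compared, a replicate block and leaving out each library. List counts without Y396E arsenite replicate 3 were added after seeing the data. UTRs were those of 1 reference transcript per gene (GENCODE 44). The immunoprecipitation libraries were not analysed here.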

Additional observations from a re-analysis of the deposited data

Results flagged for a closer look

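In 2 results the arsenite response of a member differed between Y396E and WT by a test of the difference itself, edgeR's interaction term. Of all genes 21.5% were called in this term, so 2 calls among the 8 tested members were near the share of genes at large. The IGF2BP3 term was -0.28 (adjusted p = 0.00516). Y396E went from 164, 160 and 163 CPM to 128, 137 and 116 CPM, and WT from 115, 116 and 118 CPM to 113, 113 and 107 CPM. Without Y396E arsenite replicate 3, the library at 116 CPM, the term was -0.19 and was not called. The MYC term was 0.32 (edgeR adjusted p = 0.00277). Y396E went from 407, 439 and 486 CPM to 288, 280 and 276 CPM, and WT from 517, 511 and 509 CPM to 264, 258 and 257 CPM. The MYC term was 0.37 and was called without Y396E arsenite replicate 3, and was not called with library totals (0.22) or without Y396E control replicate 1 (0.26). Y396E minus WT was 0.48 for IGF2BP3 in control and 0.20 in arsenite (0.27 without Y396E arsenite replicate 3), and -0.21 and 0.12 for MYC.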

How the results depend on the processing

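Over 3720 refits of single member tests, 3684 kept their side of the thresholds, 25 lost a call, 11 gained one and 0 reversed. Leaving out each library in turn gave 5 to 7 calls of members for mutant against WT in control (6 with all libraries), 4 to 6 in arsenite (5), 25 to 26 for arsenite against control (26), 1 to 2 for differences between responses (2), 0 to 1 for Y396E against S181E (0), and 0 to 2 relations to the transgene (0). The response differences fell to 1 without Y396E control replicate 1 or without replicate 3 of RQ or Y396E in arsenite. Without S181E arsenite replicate 3 MYC was called in S181E (0.26) and IGF2BP3 in Y396E was not (-0.25). The HMGA2 difference between Y396E and WT was lost in control without WT control replicate 2 (-0.26) and with library totals (-0.20), and in arsenite with library totals (-0.24), only the groups compared (-0.26) and without replicate 3 of WT, RQ or S181E in arsenite (-0.25). HMGA1 in RQ arsenite was called without RQ arsenite replicate 1 (0.27). With library totals the MYC term of Y396E was 0.22 and was lost, IGF2BP3 in S181E arsenite (0.27), its term in S181E (-0.32) and the BTRC term in S181E (-0.30) were called, and 23 of 32 arsenite tests were called. Leaving out Y396E arsenite replicate 3 for the lists was an alternative chosen after seeing the data. In Y396E arsenite against WT, 5 in place of 3 of 14 other let-7 targets were then called. Of the 3 tested genes listed for the BTRC ligase 1 was called in place of 0. Of all genes 8.54% were then higher and 9.79% lower, against 9.77% and 11.9% with all libraries. The cause was not tested. The replicate block kept every call of the 120 member tests (6, 5, 26, 2 and 0 calls) and moved no difference by more than 0.01.

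Library totals moved the share of higher among all called genes from 50.4% to 83.5% (S181E control), 50.5% to 80.9% (Y396E control), 70% to 38.3% (RQ control), 38.7% to 55.6% (S181E arsenite), 89.9% to 77.7% (RQ arsenite), 50.3% to 61.4% and 50.9% to 61.8% (arsenite in WT and RQ), and, for responses, 42.6% to 13% (S181E) and 48.1% to 18.4% (Y396E). The median of all genes in arsenite moved from -0.01 to 0.14 in WT and to 0.16 in RQ. At 1 to 37 counts, LIN28B could not be tested under either filter.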
